A study of Mus musculus with 4 samples.

Results

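The genes of the proteasome were examined in mouse T cells. Members were the protein-coding genes whose GENCODE symbol is Psma, Psmb, Psmc, Psmd, Psme, Psmf or Psmg followed by a number, and 48 such genes were found among the 50600 genes of the count files, of which 21764 were protein-coding. The rule itself uses no measured value, although it was set with earlier results of these data known. The rule leaves out Psmc3ip, whose product is not a proteasome subunit, and Psme2b, a protein-coding near copy of Psme2, and it leaves out the pseudogenes Psmb5-ps, Psmb6-ps, Psmb6-ps2 and Psmb7-ps2. Sem1, Adrm1 and Pomp encode proteasome proteins under other symbols and were looked at separately.

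The study deposited RNA sequencing of primary T cells of C57BL/6NJ mice, as biological replicates 1 to 4 of a single group. Sex was not collected, age is unknown, and no treatment, allele or second condition is given in the labels. The headers of the count files add that the cells were Th0, activated and sorted, at 72 hours, and the linked protocols are named for CD4 T cell differentiation and for libraries of polyadenylated RNA, although the assay title is total RNA. All libraries carry one donor entry, and separate animals or cultures are not stated, so p-values measure only the spread between these libraries, which may be technical. Total counts were 34978213, 118937382, 42274502 and 95356041 in replicates 1 to 4. The defining T cell markers were present: 9 of 9, among them Cd3d, Cd3e, Trac and Cd4, had at least 1 TPM in each library, with a summed level of 6396 to 6796 TPM. TPM is the count divided by gene length, scaled so that each library sums to the same total.

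The proteasome degrades proteins that carry ubiquitin chains. Its 20S core is a barrel of outer alpha rings and inner beta rings, and the proteolytic sites sit on the subunits beta1, beta2 and beta5, encoded by Psmb6, Psmb7 and Psmb5. Interferon-inducible counterparts, Psmb9, Psmb10 and Psmb8, can take these positions during assembly and give the immunoproteasome, which is abundant in cells of the immune system and shapes the peptides displayed on MHC class I. The 19S particle, built of Psmc ATPases and Psmd subunits, recognises, deubiquitylates and unfolds substrates, whereas the Psme activators open the core without ATP.

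The proteasome genes were abundant. At least 1 TPM in each library was measured for 46 of the 48 members, against 49.9% of all protein-coding genes, and the exceptions were Psma8 and Psmb11. Together the 48 members made up 0.798%, 0.758%, 0.722% and 0.772% of all counts in replicates 1 to 4 (0.762% ± 0.0317, SD, n = 4) and summed to 11122 ± 337 TPM. Their median was 185, 187, 173 and 188 TPM, while the median of the 10868 expressed protein-coding genes was 30.3, 32.4, 32.6 and 32.1 TPM. The median member lay above 91.1% of those expressed genes, and 27 members lay above 90% of them. Members nonetheless covered a wide range of levels, from Psmb11 at 0.0272 TPM to Psma2 at 716.6 TPM.

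**Figure D1:**
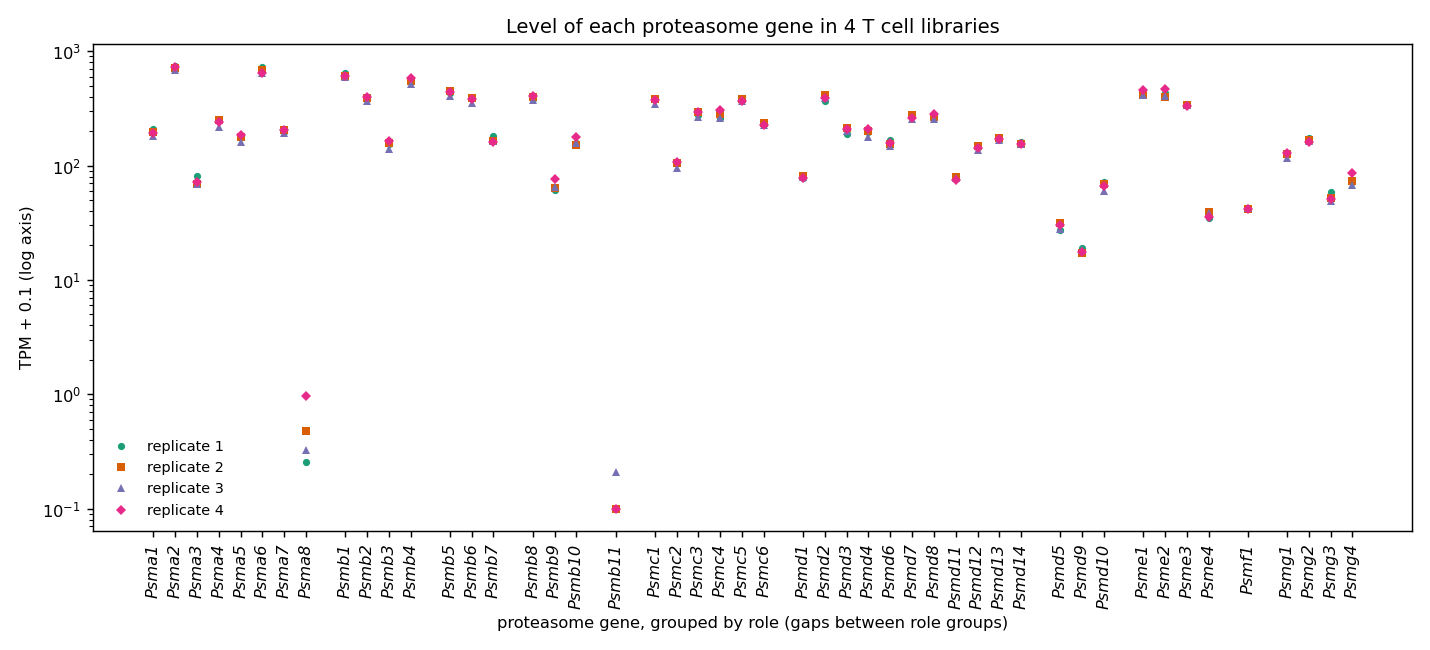
TPM + 0.1 on a log axis for each of the 48 proteasome genes (x axis, grouped by role), 1 point per library with a symbol for each replicate. Points of one gene nearly coincide for the abundant members, and Psma8 and Psmb11 lie far below all others.

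The catalytic subunits pair by position, and the partners were alike in their coding sequence. Catalytic genes of different positions were not aligned with each other. The stretches below, from GENCODE M21 transcripts, are 60 coding bases around the longest exact match of each pair, which is in capitals. They are centred on that match, so they show how short it is and not how alike the partners are over their whole length.
Psmb6: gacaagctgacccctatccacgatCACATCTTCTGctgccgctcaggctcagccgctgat
Psmb9: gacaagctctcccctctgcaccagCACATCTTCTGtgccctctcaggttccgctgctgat
Psmb7: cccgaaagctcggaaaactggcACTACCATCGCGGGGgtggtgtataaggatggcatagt
Psmb10: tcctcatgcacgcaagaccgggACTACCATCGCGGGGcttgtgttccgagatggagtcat
Psmb5: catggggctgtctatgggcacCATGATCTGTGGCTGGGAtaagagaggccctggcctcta
Psmb8: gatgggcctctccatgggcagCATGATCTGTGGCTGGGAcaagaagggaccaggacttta
Over the aligned coding bases without gaps, Psmb6 and Psmb9 were 65.6% identical, Psmb7 and Psmb10 62.5%, and Psmb5 and Psmb8 65.9%. The longest shared runs were 11, 15 and 18 bases.

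At the beta1 position, which cleaves after acidic residues, the constitutive gene was well above its counterpart. Psmb6 (chromosome 11, 70525367 to 70527858, plus strand, mm10) stood at 391.5, 391.2, 355 and 381 TPM in replicates 1 to 4 (379.8 ± 17.2, SD, n = 4). Psmb9 (chromosome 17, 34181988 to 34187764, minus strand), which lies in the MHC region, stood at 60.4, 63.2, 65.3 and 76.7 TPM (66.4 ± 7.13). The groups of values did not overlap, and Psmb9 was lower by a log2 difference of -2.52 ± 0.17, which is 5.73-fold and far beyond the spread between libraries. All 4 libraries agreed in direction, and the exact two-sided sign-flip permutation test over libraries gave p = 0.125, or 0.167 after Benjamini-Hochberg adjustment over the 8 contrasts computed. With 4 libraries this test cannot go below 0.125, so no contrast of this kind can pass 0.05.

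At the beta2 position, which cleaves after basic residues, the partners lay close together on this scale. Psmb7 (chromosome 2, 38588036 to 38644087, minus strand) stood at 180.4, 165, 164 and 162 TPM (168 ± 8.44, SD, n = 4). Psmb10 (chromosome 8, 105935735 to 105938444, minus strand) stood at 156, 150.3, 158 and 178 TPM (160.5 ± 11.9). Psmb10 was the lower gene in 3 libraries and the higher gene in replicate 4. The log2 difference of -0.066 ± 0.15 was within the spread between libraries (exact sign-flip p = 0.375, adjusted p = 0.375).

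At the beta5 position, which cleaves after hydrophobic residues, both genes were high. Psmb5 (chromosome 14, 54614120 to 54617995, minus strand) stood at 431, 445, 402 and 443 TPM (430.3 ± 19.7, SD, n = 4). Psmb8 (chromosome 17, 34197721 to 34201454, plus strand), a neighbour of Psmb9, stood at 384, 399, 373 and 405 TPM (390.2 ± 14.6). Psmb8 was lower in each of the 4 libraries, by a log2 difference of -0.14 ± 0.03 (exact sign-flip p = 0.125, adjusted p = 0.167). The difference exceeded the spread between libraries, but its direction turned with the gene length used, as given next.

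**Figure D2:**
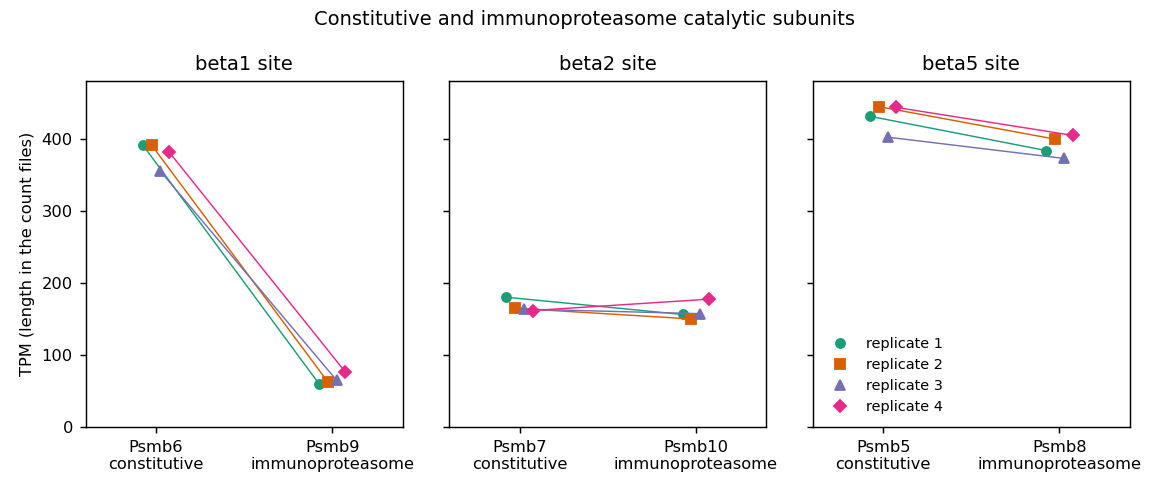
TPM on a linear axis from 0 for the constitutive (left) and immunoproteasome (right) subunit at each catalytic position, with a line joining the values of 1 library. Psmb9 lies at 60.4 to 76.7 TPM in all libraries, far below Psmb6, while the lines at beta2 and beta5 are nearly level.

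A level per length depends on which length is taken, and here it turned the direction of 1 pair and changed the size of the others. The count files give the length of all annotated exons of a gene merged. Psmb5 has 871 bases by that measure, whereas Psmb8 has 2736, Psmb7 3421 and Psmb9 3659, and their coding lengths are 792, 828, 831 and 657 bases. With the length of the longest coding transcript, Psmb8 exceeded Psmb5 by 0.65 ± 0.03 log2, with the counted part of the principal transcript by 0.61 ± 0.03, and with the coding length by 1.45 ± 0.03. Psmb10 lay below Psmb7 on the same lengths, by differences of -1.25 ± 0.15, -1.25 ± 0.15 and -1.05 ± 0.15 log2. Psmb9 stayed below Psmb6, by -2.31 ± 0.17, -2.31 ± 0.17 and -1.43 ± 0.17 log2. The last 2 of these lengths were chosen after the data were seen, and which length describes the transcripts in these cells was not tested.

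Reads that fit several places were not counted, which touches members with pseudogene copies. Of the 50-base windows of each member's principal transcript, the share found in no gene elsewhere was 50% for Psmb5, whose largest number of shared windows was with Gm3375, and 97.3% for Psmb6. It was 100% for Psmb7, Psmb8, Psmb9 and Psmb10. Psmb5 also shares 109 exonic bases, 12.5% of its length, with Mir686 on the same strand, and pairs assigned to both were not counted either. Dividing counts by the number of unique windows put Psmb8 below Psmb5 again, at -0.38 ± 0.03 log2, with Psmb10 minus Psmb7 at -1.25 ± 0.15 and Psmb9 minus Psmb6 at -2.39 ± 0.17. This scale takes every pair that touches a shared window as not counted. A read pair can reach beyond 50 bases and be placed by its other bases, and how many were placed so was not tested. The scale too was chosen after the data were seen. When annotated genes at the same locus also counted as copies, the 3 differences were -0.52, -1.73 and -2.20 log2. Psmb9 below Psmb6 thus held on every scale computed, the size and even the presence of a beta2 difference depended on the length, and the direction at beta5 differed between scales.

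**Figure D3:**
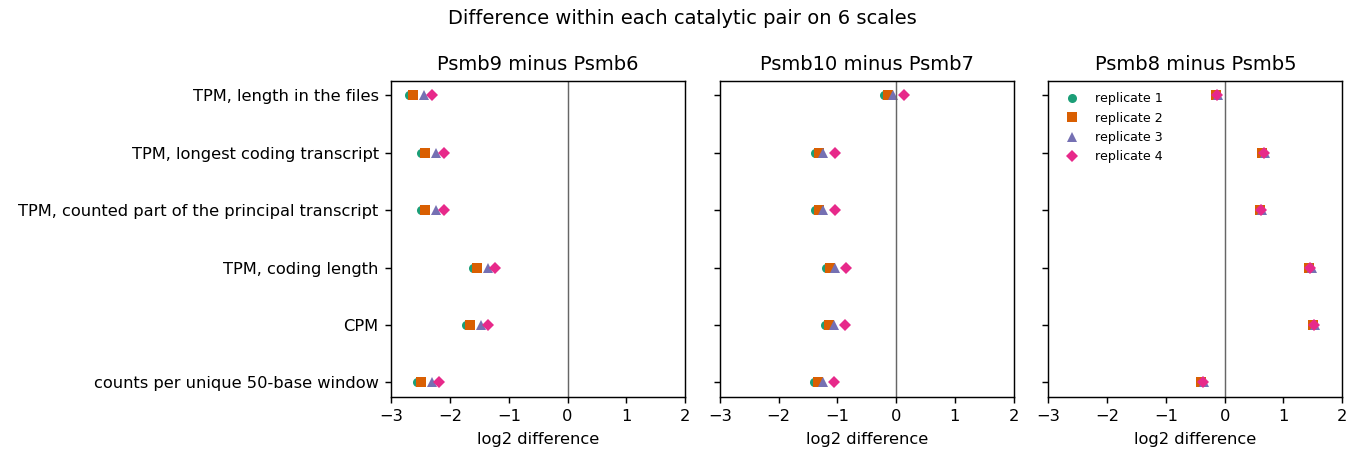
Log2 difference (immunoproteasome minus constitutive subunit, x axis) for the 3 catalytic pairs on 6 scales (rows), 1 point per library and a vertical line at 0. The beta1 points are left of 0 on all 6 scales, and the beta5 points lie on both sides of 0 depending on the scale.

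Expressed as a share of each pair's summed TPM on the length in the files, the immunoproteasome subunit made up 14.9% ± 1.54 at beta1, 48.9% ± 2.53 at beta2 and 47.6% ± 0.443 at beta5 (SD, n = 4). Over all 3 pairs the share was 37.45%, 37.98%, 39.27% and 40.04% in replicates 1 to 4 (38.7% ± 1.18). With the coding length it was 48.0% ± 1.49 over all pairs, with 27.1% at beta1, 32.6% at beta2 and 73.2% at beta5. Replicate 4 had the highest share at beta1 and beta2 and over all pairs, and replicate 3 the highest at beta5. In bulk RNA, fewer cells expressing a gene and less RNA of it per cell cannot be told apart, so these shares say nothing about how single cells mix the subunits.

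The alpha ring gates the core and docks its regulators. Its 8 genes had a median of 197 ± 6.69 TPM (SD, n = 4). Psma2 was the most abundant, at 740.3, 714.5, 681 and 731 TPM (716.6 ± 26.1), and Psma6 followed at 674 ± 38.1 TPM. Psma1, Psma4, Psma5 and Psma7 lay between 176 and 239 TPM. Psma3 was the lowest of the 7 widely expressed alpha genes, at 81.7, 68.4, 69.5 and 72.1 TPM (72.9 ± 6.03). Psma3 has 3894 exonic bases in the files and 765 coding bases, and with coding lengths Psma6 was the highest alpha gene at 379 TPM and Psma5 the lowest of the 7.

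The structural beta genes, which line the inner rings without proteolytic sites, had a median of 467 ± 20.2 TPM (SD, n = 4). Psmb1 was highest at 639, 607, 599 and 611 TPM (614 ± 17.5), and Psmb3 was lowest at 155, 158, 140.5 and 165 TPM (154.7 ± 10.4). Psmb4 stood at 551 ± 25.8 and Psmb2 at 384 ± 15.0 TPM. With coding lengths Psmb4 was the highest of the 4 and Psmb3 again the lowest, at 194 TPM. Only 44.2% of the windows of Psmb3 were unique, and 45.5% of those of Psma5, so their counts may be reduced by an amount that was not tested. Of all 48 members, 38 had at least 90% unique windows, 6 had 60% to 90% and 4 had less than 60%, namely Psma5, Psmb3, Psmb5 and Psme2.

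A core built only of constitutive subunits holds each of them in equal number, yet the transcripts of the 14 constitutive core genes were not equal. Psmb6, Psmb7 and Psmb5 share their positions with the immunoproteasome subunits, so equal levels are not implied for these genes. None of them lies at an end of the spans given here. Their mean levels spanned 9.82-fold, from Psma3 to Psma2, with an SD between genes of 0.98 log2. With coding lengths the span was 4.22-fold, from Psma5 at 108 to Psmb4 at 456 TPM, with an SD of 0.59 log2, and with the counted part of the principal transcript it was 9.10-fold, from Psma3 to Psmb4. The order of genes therefore shifted with the length, and Psma7 moved from 199.6 ± 5.47 to 463 TPM with the counted part of its principal transcript. The SD of these means over the 4 libraries was small beside the span, from 5.47 TPM for Psma7 to 38.1 TPM for Psma6 on the length in the files.

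**Figure D4:**
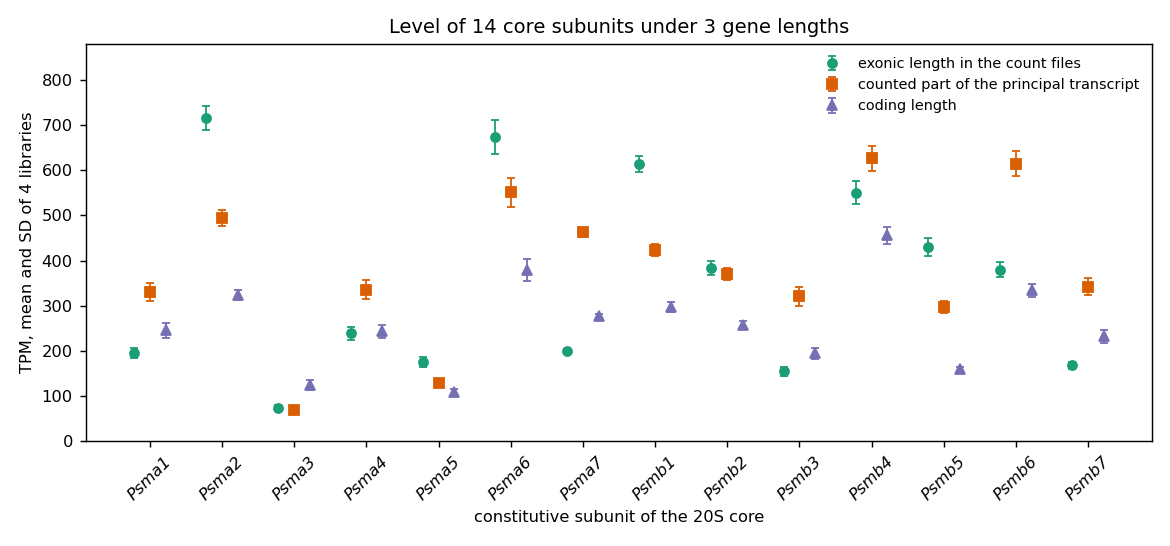
Mean TPM with SD over 4 libraries (y axis, from 0) for the 14 constitutive core subunits (x axis), computed with 3 gene lengths shown by symbol. Psma2 lies at 716.6 TPM with the length in the files and at 324 TPM with its coding length, and Psma3 is low with every length.

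The tissue-restricted core subunits were almost absent. Psma8, the alpha subunit of the testis core and a relative of Psma7, had 3, 23, 5 and 43 counts, or 0.157, 0.373, 0.228 and 0.860 TPM (0.404 ± 0.317, SD, n = 4). All 4 values lay far below Psma7, at 197, 203, 193 and 205 TPM, with a log2 difference of -8.82 ± 0.80 on the log2(TPM + 0.1) scale, or -7.18 with a pseudocount of 1, which in part sets this size (exact sign-flip p = 0.125, adjusted p = 0.167). Psma7 and Psma8 are 74.9% identical over aligned coding bases, with a longest shared run of 17 bases. The testis germ cell markers Tnp1 and Prm1 were at 0 in every library, while Ddx4 and Dazl stood at 0.456 ± 0.205 and 0.208 ± 0.178 TPM. The 4 markers of that list summed to 0.564 to 0.831 TPM. Psmb11, the beta5t subunit of the thymoproteasome of thymic cortical epithelium, had 0, 0, 6 and 0 counts, or 0.109 TPM in replicate 3. A count of 0 allows up to 3 counts, which is 0.0626, 0.0194 and 0.0239 TPM in replicates 1, 2 and 4, counting error only. Psmb11 lies next to Psmb5 on chromosome 14 (54625310 to 54629556, plus strand), and the difference from Psmb5 was -11.80 ± 0.60 log2 (exact sign-flip p = 0.125, adjusted p = 0.167), a size that the pseudocount sets, since it was -8.71 with a pseudocount of 1. Of the 5 thymic epithelial markers, Foxn1 and Krt8 were at 0 in every library, while Prss16, Ccl25 and Epcam stood at 4.96 ± 0.967, 4.199 ± 0.470 and 3.26 ± 0.144 TPM. The list summed to 11.04 to 13.3 TPM.

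The 19S ATPases form the ring that unfolds substrates and threads them into the core. The 6 genes had a median of 279.8 ± 16.6 TPM (SD, n = 4). Psmc5 was highest at 387, 379, 364 and 369 TPM (375 ± 10.6), closely followed by Psmc1 at 373 ± 19.8, and these neighbours in the order did not differ beyond their spread. Psmc2 was lowest at 105, 104.8, 95.2 and 107 TPM (103 ± 5.23). Psmc3, Psmc4 and Psmc6 lay between 229.6 and 283 TPM. The order depended on the length, and with coding lengths Psmc3 was highest at 187 TPM and Psmc6 lowest at 103 TPM.

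The 11 non-ATPase subunits of the 19S particle include ubiquitin receptors, the deubiquitylase Psmd14 and scaffold proteins, and had a median of 169.6 ± 2.62 TPM. Psmd2, a large scaffold at the base, was highest at 370.1, 413, 388 and 389 TPM (390.2 ± 17.8). Psmd11 was lowest at 78.8, 79.4, 77.3 and 74.9 TPM (77.6 ± 1.99), and Psmd1, the other large scaffold, was near it at 78.7 ± 1.24. The ubiquitin receptor Psmd4 stood at 195 ± 12.6 and Psmd14 at 156 ± 3.01 TPM. The remaining subunits, Psmd3, Psmd6, Psmd7, Psmd8, Psmd12 and Psmd13, lay between 143 and 268 TPM. With coding lengths Psmd8 was highest at 260.3 TPM, against 194 TPM for Psmd2, and Psmd1 was lowest at 67.2 TPM. Across the 17 ATPase and non-ATPase genes the span was 5.03-fold, or 3.87-fold with coding lengths.

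Among the activators, the PA28 genes were among the more abundant members. Psme1 and Psme2 encode PA28 alpha and beta, which form a cap together and are inducible by interferon gamma. Both genes lie close together on chromosome 14 (55578123 to 55581529, plus strand, and 55587441 to 55591113, minus strand). Psme1 stood at 444, 415, 417 and 460.3 TPM (434 ± 21.8, SD, n = 4) and Psme2 at 433, 401, 404 and 468 TPM (427 ± 30.9). Psme1 was the higher gene in 3 of 4 libraries, by 0.026 ± 0.033 log2 (p = 0.25 in the exact sign-flip test, adjusted p = 0.286). Only 40.7% of the windows of Psme2 were unique, the gene that shared most windows was Psme2b, and per unique window Psme1 lay below Psme2 by -0.94 ± 0.03 log2. Psme2b itself was listed at 10.2, 9.87, 17.2 and 17.4 TPM.

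Psme3, the nuclear PA28 gamma, stood at 342, 339, 335 and 328 TPM (336 ± 5.96). It was lower than Psme1 in all 4 libraries, by -0.37 ± 0.087 log2 (exact sign-flip p = 0.125, adjusted p = 0.167), but the difference depended on the length. It was -1.21 ± 0.087 with the longest coding transcript and with the counted part of the principal transcript, -1.47 ± 0.087 per unique window and 0.020 ± 0.087 with coding lengths. Psme4, the large nuclear activator PA200, was far lower at 34.4, 39.1, 38.0 and 35.3 TPM (36.7 ± 2.24), which is -3.56 ± 0.15 log2 from Psme1 (exact sign-flip p = 0.125, adjusted p = 0.167), or -1.64 in CPM without division by length. Psmf1, the inhibitor PI31, stood at 41.7, 41.3, 42.7 and 41.6 TPM (41.8 ± 0.630).

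Assembly chaperones, which are not part of the finished particle, had lower medians than the groups of subunits. Of the core chaperones, Psmg2 was highest at 174, 168, 165 and 160.1 TPM (167 ± 6.00) and Psmg3 lowest at 58.6, 51.6, 48.4 and 50.7 TPM (52.3 ± 4.41), with Psmg1 at 125 ± 5.02 and Psmg4 at 74.7 ± 7.83, whereas with coding lengths Psmg3 was highest at 139 TPM and Psmg4 lowest at 37.7 TPM. Of the chaperones of the 19S base, Psmd10, also known as gankyrin, stood at 71.3, 69.5, 60.02 and 65.8 TPM (66.7 ± 4.99). Psmd9 stood at 18.8, 17.2, 18.0 and 17.3 TPM (17.8 ± 0.729) and Psmd5 at 29.1 ± 1.84 TPM, and with coding lengths Psmd9 was highest of the 3 at 65.2 TPM and Psmd5 lowest at 46.7 TPM. Median levels were 99.7 ± 6.03 TPM for the Psmg genes and 29.1 ± 1.84 TPM for the base chaperones.

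Proteasome genes varied little between the 4 libraries. The largest ratio of the highest to the lowest library among 46 tested members was 1.30, and the median ratio was 1.15. The median SD of log2 CPM (counts scaled to the library total) was 0.091 for members and 0.119 over all 14269 genes tested, which were not matched for level. It was 0.078 for the T cell markers, 0.083 for proteasome partners and regulators and 0.093 for MHC class I antigen processing. For ubiquitin genes it was 0.110 and for interferon signalling 0.137, so a low spread was not particular to members. In the edgeR goodness-of-fit test, which asks whether a gene varies more than genes of its level, 0 members were called at an adjusted p under 0.05, where 0.463% of all genes were called. At an unadjusted p under 0.05, 1 member passed, against 5.69% of all genes. That member was Psma3 (adjusted p = 0.704 in edgeR's goodness-of-fit test), named after its values were seen. Under a common dispersion, which called 6.69% of all genes, 0 members were called.

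Small deviations were shared among members. Replicate 1 held the highest log2 CPM for 33 of the 46 tested members, where 29.7% of all genes tested had their highest value there. Replicate 3 held the lowest value for 36 members, where 27.9% of all genes had their lowest. The median member lay 0.09 above its mean over libraries in replicate 1 and at -0.10 in replicate 3, and near 0 in replicates 2 and 4. Replicate 4 held the highest value for 10 members, where 23.1% of all genes had theirs. They were Psmb8, Psmb9 and Psmb10 together with Psmb3, Psmc3, Psmc4, Psmd3, Psmd4, Psme2 and Psmg4. Psmb9 and Psmb10 lay at 0.21 and 0.14 in that library, whereas Psmb8 lay at 0.048, close to its 0.040 in replicate 1, and was lowest in replicate 3 like most members. These counts were taken after the pattern was seen, members of a complex are not independent, and no test of them was run.

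Deviations also varied with GC content and transcript length in some libraries. Over 12149 genes, the deviation from the mean had Spearman rho -0.257, 0.00868, 0.0735 and 0.263 with GC content in replicates 1 to 4, and -0.193, 0.0520, 0.300 and -0.148 with transcript length, where genes are not independent replicates. Members had short transcripts, with a median of 1364 counted bases against 2931 over those genes, and a GC content of 50.4% against 50.5%. After a fit on GC content and length in each library the median member lay at 0.05, 0.01, -0.06 and 0.01, and the median of Psmb8, Psmb9 and Psmb10 in replicate 4 was 0.11 in place of 0.14. Whether these shifts are technical was not tested.

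**Figure D5:**
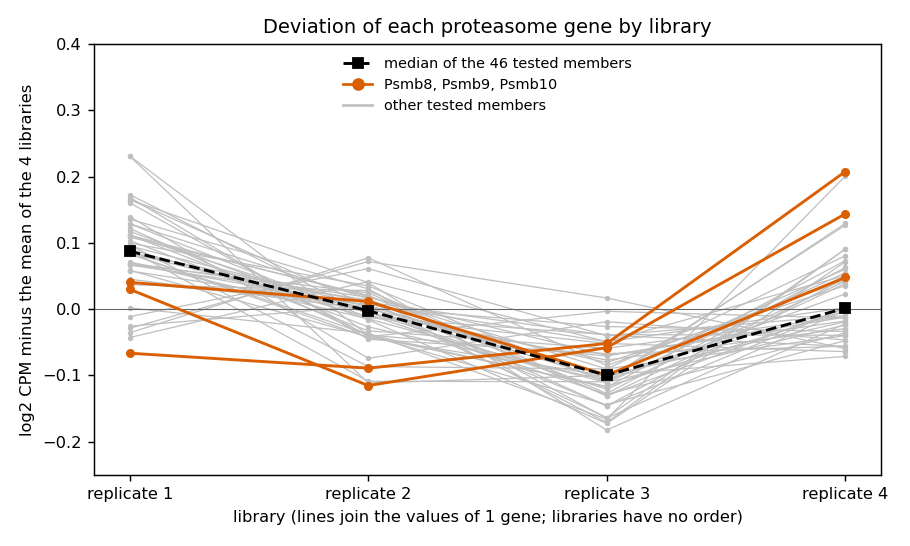
Log2 CPM minus the mean of the 4 libraries (y axis) for the 46 tested proteasome genes in each library (x axis), with Psmb8, Psmb9 and Psmb10 in orange and the median of all as a dashed line. The median is highest in replicate 1 and lowest in replicate 3, and the 3 orange genes are highest in replicate 4, Psmb8 only slightly so.

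Genes that work with the proteasome were expressed with it. Of 20 listed symbols of partners and regulators 19 were found, and the other, Shfm1, is an older symbol of Sem1. All 19 had a TPM of 1 or more. The edgeR test called 0 of them as variable at an adjusted p under 0.05 and 1 at an unadjusted p under 0.05. These shares are near the 0.463% and 5.69% of all genes tested. The core maturation factor Pomp stood at 91.6 ± 3.89 TPM, the 19S subunit Sem1 at 102 ± 11.6 and the ubiquitin receptor Adrm1 at 68.9 ± 4.75 (SD, n = 4). Nfe2l1, the transcription factor that restores proteasome genes when the proteasome is inhibited, stood at 107 ± 5.09 TPM, and its activating protease Ddi2 at 29.5 ± 1.47. Of 4 ubiquitin genes 0 were called by edgeR, with 0 at an unadjusted p under 0.05, and Ubb stood at 658 ± 31.8 and Rps27a at 786 ± 69.1 TPM.

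Genes of the class I pathway, which displays peptides made by the proteasome, were expressed as well. All 12 listed genes of MHC class I antigen processing had at least 1 TPM in each library, from Nlrc5, the transcriptional activator of class I genes, at 20.1, 25.9, 30.8 and 29.5 TPM to B2m, the class I light chain, at 1389 ± 43.0 TPM. Tap1, a chain of the peptide transporter encoded beside Psmb9, stood at 119.8, 142, 145 and 156 TPM. None of the 12 was called by edgeR, that is 0 at an adjusted p under 0.05 and 1 at an unadjusted p, Nlrc5 (adjusted p = 0.0683), where 0.463% and 5.69% of all genes passed.

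Of the 17 interferon signalling genes, Ifng itself was listed at 0, 0.0848, 1.07 and 0.497 TPM. Irf1, a factor known to drive immunoproteasome genes, stood at 13.99, 15.1, 15.7 and 16.4 TPM. Among 16 tested genes 1 was called by edgeR, the ISG15 protease Usp18, at 1.71, 1.23, 4.70 and 3.87 TPM (adjusted p = 0.0456), and 5 had an unadjusted p under 0.05, where 0.463% and 5.69% of all genes passed. Isg15 was at 12.8, 13.98, 29.4 and 29.1 TPM (adjusted p = 0.0677). Replicates 3 and 4 were thus the higher ones for Usp18 and Isg15, which are named here for their low adjusted p. Other genes of the list did not all follow this order. The median deviation of the list from the mean over libraries was -0.10, -0.06, 0.04 and 0.11 log2 CPM in replicates 1 to 4. Psmb9 and Psmb10 were highest in replicate 4, and whether these patterns are related was not tested.

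Markers of other cell types were low. B cell markers summed to 0.796 to 2.49 TPM over 4 genes with none at 0 throughout, and the highest was Cd79a at 1.23 ± 0.625 TPM. Dendritic and antigen presenting markers summed to 2.62 to 2.86 TPM over 5 genes, with Itgax and Siglech at 0. Most of that sum was Zbtb46, at 2.56 ± 0.105 TPM. Macrophage and monocyte markers summed to 1.84 to 3.49 TPM over 5 genes. Lyz2 and C1qa were at 0, while Adgre1 stood at 1.48 ± 0.353 and Cd14 at 1.03 ± 0.494 TPM. Neutrophil markers summed to at most 0.129 TPM over 4 genes, with S100a8, S100a9 and Elane at 0.

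Promoters of the members were searched for 4 motifs, because proteasome genes have known regulators. RefSeq promoters (GRCm38.p6, from upstream of the start to shortly after it) were matched for 40 of 48 members. Only the first listed promoter of each gene was used, so other starts were not searched. For 37 members the bases after the start were found in a transcript of the gene on the same strand. The motif TGACNNNGC, the core of the antioxidant response element that Nfe2l1 can bind, was found on either strand in 6 of them (15.0%), against 12.5% of 27025 promoters. The letters GAAA, any 2 bases and GAAA again, as in interferon-stimulated response elements, were found in 5 (12.5%) against 3.49%. These were Psmb3, Psmd4, Psmd9, Psmg4 and Psme1, and in Psmg4 and Psme1 the match lies after the start. The windows used for Psmb8, Psmb9, Psmb10 and Psme2 did not hold these letters. TTCNNNGAA was found in 3 (7.50%) against 8.47%, among them Psmb8, and reads the same on both strands. The stretch of the Psmb8 window around its match lies in a counted exon and is not printed below. CCAAT was found in 14 (35.0%) against 37.9%. These matches are descriptions of letters and no test of regulation. Windows of 60 bases before the start are shown for Psmb5 and Psmb6, the catalytic genes with a TGACNNNGC match, which is in capitals. Psmc6, Psmd9, Psmd12 and Psme4 also hold this motif and are not shown, a choice made after the matches were seen. The windows read 5′ to 3′ on the strand of the gene. The Psmb5 window is chr14:54618014-54618073 on the minus strand and that of Psmb6 is chr11:70525297-70525356 on the plus strand.
Psmb5: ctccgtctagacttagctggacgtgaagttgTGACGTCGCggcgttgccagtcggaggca
Psmb6: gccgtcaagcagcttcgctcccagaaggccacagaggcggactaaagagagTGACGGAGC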

How the data were processed

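The files hold deposited raw counts, 1 per gene and read pair, made by the authors with featureCounts 1.4.6-p4 on GENCODE M13 exons (mm10) with the reverse strand setting, both ends mapped and no counting of multiply mapped pairs or of pairs that overlap several genes, per the file headers. Alignments are named as STAR output there, with a version not given in the sources used here. Symbols and gene classes came from GENCODE M21 by identifier (50376 of 50600 genes, 99.6%). TPM was computed here from the counts and the merged exonic length in the files, on the log2 scale with a pseudocount of 0.1. Members and gene lists were chosen with earlier results of these data known. A gene of the interferon list is not reported by name here. Values per library are given for the 6 catalytic genes, Psme1 to Psme4, Psma8, Psmb11, the highest and lowest member of each role group and every member called variable.

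Gene pairs were compared inside each library by an exact permutation test that flips signs over 4 libraries (two-sided). Variability was tested with edgeR 4.0.16 in R 4.3.3 (filterByExpr, TMM, intercept only, goodness of fit under the trended dispersion, Benjamini-Hochberg over 14269 genes). On simulated counts for those 14269 genes it called 86.5% of 200 genes raised 4-fold in 1 library, 72.5% at 2-fold and 38.5% at 1.5-fold, with 0 calls where no gene was changed. Log2 CPM used a prior count of 2. Intervals and limits cover counting error only. Other lengths, CPM, a pseudocount of 1, other scalings and filters, and leaving out each library were tried. Unique windows were first counted with genes at the same locus as copies and principal transcripts first by whole length; both were replaced after seeing values and are given in the closing section. Python 3.11.15 with Biopython 1.88 was used for sequences.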

Additional observations from a re-analysis of the deposited data

Results flagged for a closer look

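Dixon's test for 1 outlying library was applied to 69 values, and chance picks out about 1 in 20, or 3.45 of them. Psmb11 stood apart in replicate 3, at 0.109 TPM from 6 counts where the other libraries had 0. Beside libraries at 0, any count above 0 is picked out by this test, so the flag carries no information. The Psmb11 minus Psmb5 difference, at -10.91 log2 in that library against -12.12 to -12.07, rests on the same 6 counts. Psmc2 stood apart in replicate 3, at 95.2 TPM, below the 104.8 to 106.6 TPM of the other libraries.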

How the results depend on the processing

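Of 78 log2 differences recomputed under an alternative, 69 kept their direction, of which 29 shifted by more than the SD between libraries and 18 by more than 1.5 times, and 9 turned. Of 133 other values, 83 stayed within that SD or kept their count, 49 moved further and 1 turned. Lengths other than the longest coding transcript, that length too for the activators, both unique-window scales, every alternative for the spread between subunits and the GC fit were chosen after seeing the data. No call was made among members under any scaling, filter, dispersion or left-out library (0 in edgeR). Depth limits only Psma8 and Psmb11. No pairing of samples between groups was possible because there is only 1 group, and the gene contrasts were paired inside each library.

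Psmb8 minus Psmb5 turned to 1.51 log2 with CPM, 0.65 with the longest coding transcript and with the whole principal transcript, 0.61 with its counted part and 1.45 with coding length. Psme1 minus Psme2 turned to -0.94 with both unique-window scales, and Psme3 minus Psme1 to 0.049 with CPM and 0.020 with coding length. The median member in replicate 2 turned from -0.0025 to 0.0068 log2 after the GC and length fit. In these the length or copy number enters by construction, and which setting describes the cells was not tested. Psmb10 minus Psmb7 kept its direction but went from -0.066 to between -1.05 and -1.73 log2. It was -0.13 to -0.020 when single libraries were left out. Psmb9 minus Psmb6 was -1.55 with CPM and -1.43 with coding length, and Psmb11 minus Psmb5 -9.87 with CPM.

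The immunoproteasome share with CPM, the longest coding transcript, the counted part, the coding length and the whole principal transcript was 25.5%, 16.8%, 16.8%, 27.1% and 16.8% at beta1. At beta2 it was 32.3%, 29.7%, 29.7%, 32.6% and 29.7%, at beta5 74.0%, 61.1%, 60.4%, 73.2% and 61.1%, and over all pairs 48.8%, 36.7%, 36.5%, 48.0% and 36.7%. In the same order the SD of log2 level was 0.61, 0.89, 0.87, 0.59 and 0.90 among the 14 constitutive core subunits and 0.54, 0.53, 0.52, 0.50 and 0.57 among the 17 subunits of the 19S particle, against 0.98 and 0.73 as reported.

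Role-group medians in CPM were 177 for the alpha ring, 171 for structural beta, 179 for constitutive catalytic, 85.2 for immunoproteasome, 169 for ATPase, 178 for non-ATPase, 40.3 for base chaperone, 265 for activator, 83.9 for inhibitor and 49.5 for core chaperone genes. With the counted part of the principal transcript they were 333, 398, 342 and 144 TPM for the first 4 groups, 200.2 for non-ATPase, 35.1 for base chaperone, 398 for activator, 48.8 for inhibitor and 112 for core chaperone genes.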
